A study of Mus musculus with 12 samples.

Results

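Metallothioneins and the genes that move zinc and iron were followed in whole mouse embryos that lack *Carm1* or *Pax3*. The set holds 10 named genes of the 23420 in both count tables, and they are *Mt1*, *Mt2*, *Mt3*, *Mtf1*, *Slc30a1*, *Slc39a4*, *Slc39a14*, *Hamp*, *Fth1* and *Ftl1*. *Mt2* was chosen by its measured fall in *Carm1* KO/KO embryos, so its values in that comparison are given as a description, with no test. The other 9 genes were named for their known roles, with earlier results of these data in view. Of the 10 genes, 9 passed the filter on low counts in each line, and *Hamp* did not.

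All embryos were harvested at E12.5, and each gave 1 library of polyadenylated RNA. In the *Carm1* line, on a C57BL/6 background per the labels, 3 embryos carried the Carm1tm1Mtb allele on both chromosomes (*Carm1* null, called *Carm1* KO/KO here) and 3 were wild type. In the *Pax3* line, whose strain is labelled mixed, 3 embryos carried the Pax3Sp2h allele, known as Splotch, on both chromosomes (*Pax3* null, called *Pax3* Sp2H/Sp2H here) and 3 were wild type. Both lines came from crosses of heterozygous parents, and litters are not named. *Carm1* encodes an arginine methyltransferase that acts with transcription factors, and *Pax3* encodes a transcription factor of the neural tube, neural crest and muscle precursors. Whole embryos were used, so fewer cells of a type and less RNA per cell cannot be told apart in any value below.

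Metallothioneins are small, cysteine-rich proteins that bind zinc and copper, and fetal liver is known to hold much of them. Zinc in the cell activates the transcription factor MTF1, which binds short metal response elements in the promoters of *Mt1*, *Mt2* and the zinc exporter gene *Slc30a1*. Iron is stored in ferritin, a shell of heavy (*Fth1*) and light (*Ftl1*) chains whose translation is held back by iron regulatory proteins when iron is scarce, and the liver peptide hepcidin (*Hamp*) limits the release of iron into blood.

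Library totals ranged from 17183344 to 23518692 counts over the 12 libraries, and pairs of replicates had a correlation of log2 CPM across genes of 0.993 to 0.996. Levels are given as CPM, counts divided by the library size and multiplied by 1000000, with library sizes scaled together over the 12 libraries by the TMM method, which assumes that most genes do not change. *Carm1* lay between 70.3 and 77.3 CPM in *Carm1* KO/KO embryos and between 139 and 153 CPM in their wild-type controls, and since the KO allele lacks only a pair of internal exons, reads on its other exons are still counted. *Pax3* lay between 17.8 and 22.0 CPM in *Pax3* Sp2H/Sp2H embryos and between 24.6 and 30.7 CPM in their controls. Y-linked counts (at least 100) were found in 4 libraries, which were wild-type replicate 3 of the *Carm1* line and, in the *Pax3* line, Sp2H/Sp2H replicate 3 and wild-type replicates 2 and 3.

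The 3 metallothionein genes of the set lie side by side on the plus strand of chromosome 8 (GRCm38, GENCODE), each with 3 exons. *Mt3* spans 94152607 to 94154146, *Mt2* spans 94172664 to 94173568 and *Mt1* spans 94179082 to 94180327, so that 5513 bases separate the end of *Mt2* from the start of *Mt1*. Windows of their promoters are shown because zinc is known to act on *Mt1* and *Mt2* through their promoters, and *Mt3* is set beside them as their neighbour. Each window runs from 250 bases before the start site to 50 bases after it, in the RefSeq annotation of GRCm38.p6, and reads 5′ to 3′ on the plus strand. Positions count from that annotated start site, which need not be the main one of the gene. The *Mt2* window ends at 94172667, beside the GENCODE start of the gene at 94172664, so the annotations place its start differently. Bases outside a window were not searched. Capitals mark the 7-letter core of the metal response element, TGCACNC or TGCGCNC, searched on both strands, so that a match on the minus strand reads as its reverse complement.
Mt2 promoter, chr8:94172368-94172667: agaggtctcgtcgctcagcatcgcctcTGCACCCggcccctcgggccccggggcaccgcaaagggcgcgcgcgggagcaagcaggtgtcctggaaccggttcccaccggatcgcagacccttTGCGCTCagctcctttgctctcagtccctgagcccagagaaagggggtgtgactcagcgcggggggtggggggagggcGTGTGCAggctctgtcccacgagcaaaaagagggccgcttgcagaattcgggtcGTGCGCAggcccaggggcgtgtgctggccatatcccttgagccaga
Mt1 promoter, chr8:94178839-94179138: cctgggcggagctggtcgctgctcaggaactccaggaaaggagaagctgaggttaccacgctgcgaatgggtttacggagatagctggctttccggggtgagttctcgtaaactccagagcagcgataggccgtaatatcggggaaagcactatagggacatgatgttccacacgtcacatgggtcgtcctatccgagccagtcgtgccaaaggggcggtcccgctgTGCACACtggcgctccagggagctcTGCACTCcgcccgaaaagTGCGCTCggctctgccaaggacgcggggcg
Mt3 promoter, chr8:94152357-94152656: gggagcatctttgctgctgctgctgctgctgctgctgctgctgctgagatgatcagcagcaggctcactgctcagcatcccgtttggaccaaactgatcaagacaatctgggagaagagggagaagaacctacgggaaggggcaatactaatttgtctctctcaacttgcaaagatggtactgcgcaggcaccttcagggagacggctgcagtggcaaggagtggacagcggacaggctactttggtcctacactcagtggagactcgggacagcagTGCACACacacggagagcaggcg
The *Mt2* window held 4 cores, at positions -223, -128, -50 and 5 counted from the start site. The *Mt1* window held 3 cores, at -23, 3 and 21, and the *Mt3* window held 1, at 28. At least 1 core was present in 25.7% of the 32851 promoter windows in the same annotation, at least 3 in 1.97% and at least 4 in 0.517%. The *Slc30a1* window held 2 cores, and those of *Mtf1*, *Hamp*, *Ftl1* and *Fth1* held no match to these letters. The core of the antioxidant response element, TGACNNNGC, was searched in the same way and matched the *Mt2* window at -79 and the *Slc30a1* window at -82, against 12.4% of all windows, with no base shared with the metal response cores. A match describes the sequence and does not show that a factor binds there. A window without a match does not show that the promoter lacks the element.

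*Mt2* and *Mt1* were lower in all *Carm1* KO/KO embryos than in any wild-type embryo of the line. *Mt2* stood at 66.6, 59.9 and 66.6 CPM in *Carm1* KO/KO replicates 1 to 3 and at 106, 109 and 149 CPM in wild-type replicates 1 to 3. These are the values that chose *Mt2*, and the groups did not overlap, with a log2 fold change of -0.92 (SE 0.17). *Mt1* stood at 66.0, 58.8 and 64.7 CPM in *Carm1* KO/KO embryos and at 102, 96.4 and 139 CPM in wild-type embryos. The *Mt1* groups did not overlap either, and wild-type replicate 3 was the highest library for both genes. Its mean over 3 mutants was 63.1 ± 3.84 CPM (SD), that over 3 controls was 113 ± 23.1 CPM, and the log2 fold change was -0.84 (SE 0.18). In edgeR's test over the 15811 genes of the line this missed the threshold of 0.05 (FDR adjusted *P* = 0.058). It passed in 7 of 14 other settings, in which the adjusted *P* ranged from 7.7e-14 to 0.17 and the log2 fold change from -0.94 to -0.65. Without wild-type replicate 3, the only library of the line with Y-linked counts, *Mt1* had a log2 fold change of -0.65 and passed (adjusted *P* = 7.7e-14). A term for Y-linked counts amounts to the same fit here and is counted beside it among the 14. Without wild-type replicate 2 *Mt1* passed as well (0.014). It did not pass without *Carm1* KO/KO replicate 1 (0.17), replicate 2 (0.16) or replicate 3 (0.16), or without wild-type replicate 1 (0.11).

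In *Carm1* KO/KO embryos 2 of 9 members of the set, *Mt2* counted, passed the threshold, beside 13.3% of all genes. The groups of 5 of the 9 genes did not overlap, beside 30% of all genes. The median log2 fold change of the 9 genes was -0.13, against 0.0014 over all genes tested. Both counts and the median include *Mt2*, which this contrast chose, so nothing is read from them.

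**Figure D1:**
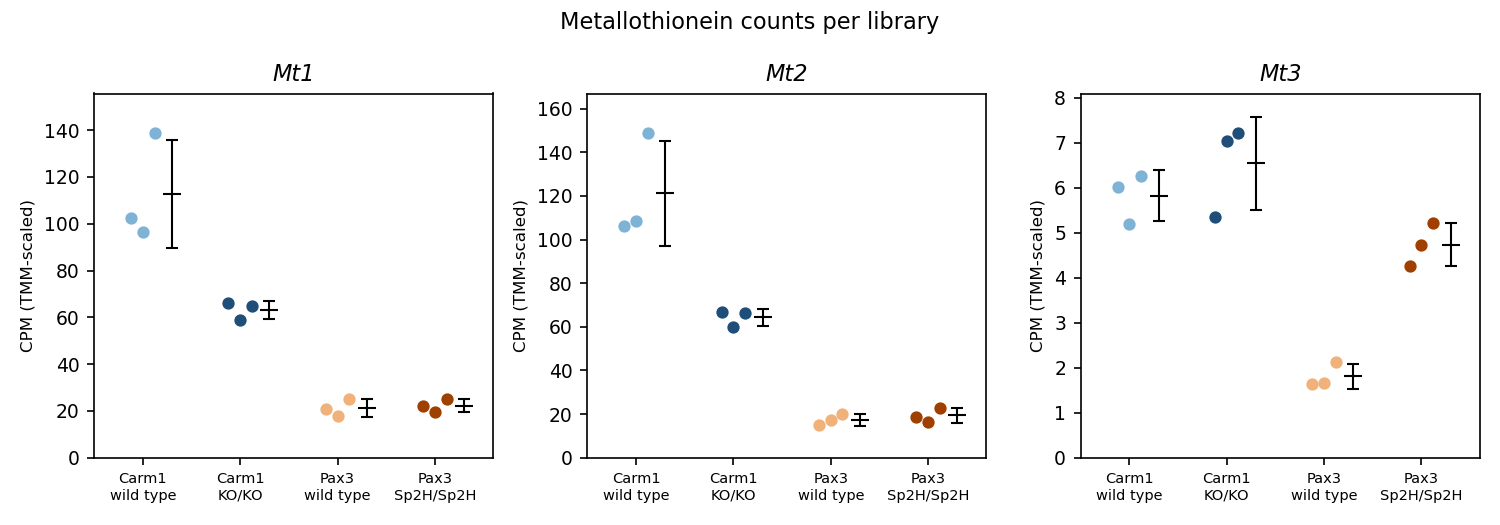
CPM of *Mt1*, *Mt2* and *Mt3* in each library (points, replicates 1 to 3 from left to right) by group, with the group mean and SD (n = 3) as a bar beside them and a vertical axis from 0. *Mt1* and *Mt2* of *Carm1* KO/KO embryos lie below their controls and above every library of the *Pax3* line, and *Mt3* of *Pax3* Sp2H/Sp2H embryos lies above its controls.

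*Mt3*, a metallothionein known mainly from the brain, showed no difference beyond its spread in the *Carm1* line. It stood at 5.35, 7.05 and 7.23 CPM in *Carm1* KO/KO embryos and at 6.01, 5.19 and 6.27 CPM in wild-type embryos, and the groups overlapped (log2 fold change 0.17, SE 0.15, adjusted *P* = 0.52). *Mt4*, known from stratified epithelia, had 0 counts in all 12 libraries.

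The ratio of *Mt1* to *Mt2* counts stayed just below 1 in the *Carm1* line. *Mt1* over *Mt2* was 0.990, 0.981 and 0.971 in *Carm1* KO/KO embryos and 0.965, 0.888 and 0.932 in wild-type embryos. No mutant ratio reached down to the highest wild-type one. The values of *Mt2* in this line chose it, so these ratios are a description.

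*Fth1*, the ferritin heavy chain that oxidizes iron as it enters the shell, fell in *Carm1* KO/KO embryos. It stood at 369, 381 and 394 CPM in the mutants and at 413, 454 and 525 CPM in wild-type embryos. No mutant reached the lowest wild-type embryo, and the log2 fold change was -0.28 (SE 0.071, adjusted *P* = 0.019). The call was lost in DESeq2 (-0.28, adjusted *P* = 0.069), with length and GC offsets, which take out each library's trend with transcript length and GC content (-0.27, 0.13), and without *Carm1* KO/KO replicate 1 (-0.26, 0.069), among 14 settings in which the adjusted *P* ranged from 1.9e-08 to 0.13. Without wild-type replicate 3 the log2 fold change was -0.19 and passed (adjusted *P* = 0.0028). A term for Y-linked counts gives the same value in this line, since that library alone has them, so the 14 settings hold this fit in both forms. *Ftl1*, the light chain, stood at 1348, 1298 and 1338 CPM in mutants and at 1391, 1431 and 1500 CPM in wild-type embryos. Its groups did not overlap, but the log2 fold change of -0.12 (SE 0.048) did not pass (adjusted *P* = 0.10). It passed in DESeq2 (0.027), with the length and GC offsets (0.019) and without wild-type replicate 1 (0.022). The ratio of *Ftl1* to *Fth1* counts was 3.65, 3.4 and 3.4 in *Carm1* KO/KO embryos and 3.37, 3.15 and 2.86 in wild-type embryos (exact two-sided permutation *P* = 0.1, the smallest possible). Both ferritin genes have processed pseudogenes, and how reads with several matches were counted is not given in the sources used here, so their levels are uncertain.

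The zinc sensor and the zinc transporters of the set differed little in the *Carm1* line. *Mtf1* stood at 24.3, 27.2 and 27.7 CPM in *Carm1* KO/KO embryos and at 28.7, 29.2 and 28.5 CPM in wild-type embryos. The groups did not overlap, but the log2 fold change of -0.13 (SE 0.073) did not pass (adjusted *P* = 0.27). *Slc30a1*, the zinc exporter of the plasma membrane, ranged from 26.1 to 30.0 CPM in mutants and from 26.4 to 28.3 CPM in wild-type embryos (log2 fold change 0.052, SE 0.074, adjusted *P* = 0.71). *Slc39a14*, an importer of zinc, iron and manganese, ranged from 29.3 to 32.2 CPM and from 28.4 to 31.3 CPM (log2 fold change 0.0010, SE 0.072, adjusted *P* = 0.99). *Slc39a4*, the zinc importer of the gut and of the yolk sac endoderm, was near the filter with 15 to 33 counts per library of the line (log2 fold change -0.21, SE 0.32, adjusted *P* = 0.73), so its error was the largest of the set. *Hamp* had 0 counts in the 3 *Carm1* KO/KO libraries and in wild-type replicate 2, 3 counts in wild-type replicate 1 (0.18 CPM) and 15 in wild-type replicate 3 (0.74 CPM). A count of 0 allows up to 3 counts, which is 0.13 to 0.18 CPM in these libraries, and no test was made. Such limits cover counting error only.

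Liver markers moved in the same direction as *Mt1*, *Mt2* and *Fth1*. Of 10 hepatocyte markers, 9 were lower in *Carm1* KO/KO embryos and *Ahsg* did not pass, beside 13.3% of all genes called. *Apob* passed in 8 of 14 other settings (adjusted *P* up to 0.13, with the replicate block), *Apoa2* in 10, *Apoa1* in 11 and *Ttr* in 13, and the calls of the other 5 were kept in every setting in which they were tested. The summed level of the 10 was 796 to 931 CPM in mutants and 1489 to 1830 CPM in wild-type embryos, and none was at 0 in all libraries. Of 9 erythroid markers tested, 6 fell and the embryonic globin gene *Hbb-bh1* rose, a call kept in 9 of 14 other settings. The adult globin gene *Hba-a1* had 0 counts in all libraries. That 0 is not read as absence of its RNA, since how reads with several matches were counted is not given. The summed level of the erythroid markers, 7637 to 8997 CPM in mutants, overlapped the 5425 to 9542 CPM of wild-type embryos. The embryonic globin genes *Hbb-y* and *Hba-x*, neither of which passed, made up most of that sum. *Hbb-y* had a mean of 5231 CPM in mutants and 5404 CPM in wild-type embryos. *Hba-x* had 1932 CPM in mutants and 903 CPM in wild-type embryos, and its groups did not overlap (log2 fold change 1.10, adjusted *P* = 0.077). Among the markers that fell were *Rhag* (-0.62), *Epb42* (-0.59), *Klf1* (-0.57), *Slc4a1* (-0.46) and *Alas2* (-0.40). In 1 fit of all 12 libraries *Epb42*, *Slc4a1* and *Alas2* did not pass, and *Alas2* did not pass with the length and GC offsets either (0.076). The summed level of 8 macrophage markers, at 117 to 130 CPM and 116 to 123 CPM, overlapped as well. Among them 1 passed, *Adgre1*, which fell by 0.42 on the log2 scale (adjusted *P* = 0.021), a call kept in 10 of 14 other settings. Of the 8, 3 had a negative log2 fold change. The part of these cell types in the metallothionein and ferritin values was not tested.

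**Figure D2:**
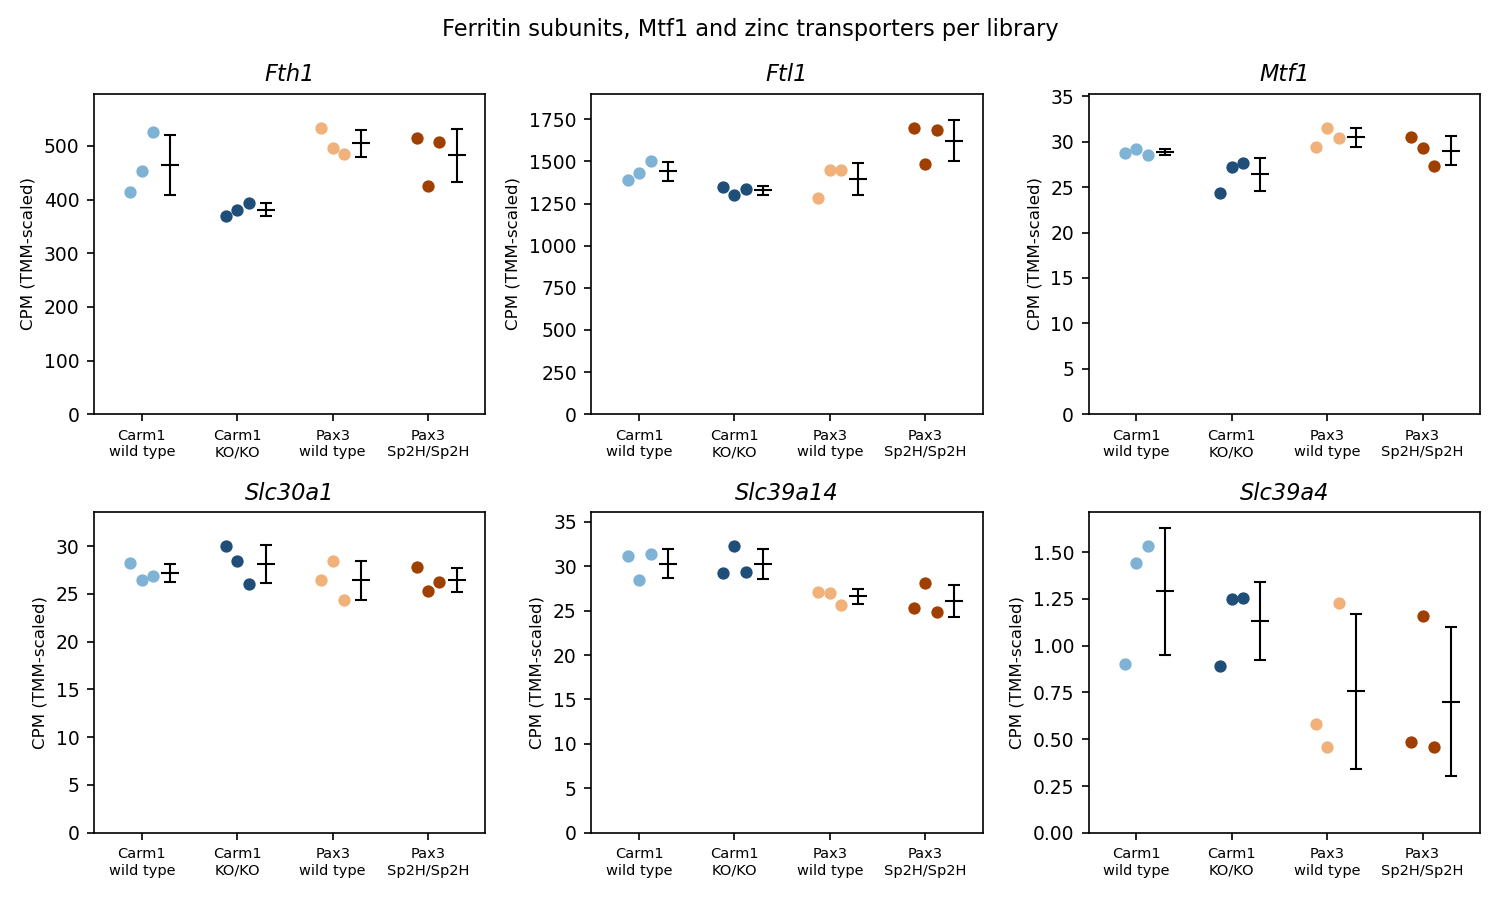
CPM of *Fth1*, *Ftl1*, *Mtf1*, *Slc30a1*, *Slc39a14* and *Slc39a4* in each library (points) by group, with the mean and SD (n = 3) as a bar beside them and vertical axes from 0. *Fth1* of the 3 *Carm1* KO/KO embryos sits between 369 and 394 CPM, below the wild-type embryos, and *Ftl1* of the 3 *Pax3* Sp2H/Sp2H embryos sits between 1482 and 1699 CPM, above theirs.

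*Mt3* rose in the *Pax3* line, where *Mt1* and *Mt2* did not pass the test. *Mt1* stood at 22.3, 19.5 and 25.0 CPM in *Pax3* Sp2H/Sp2H embryos and at 20.7, 17.9 and 25.2 CPM in wild-type embryos (log2 fold change 0.069, SE 0.11, adjusted *P* = 0.71). *Mt2* stood at 18.8, 16.5 and 22.9 CPM and at 14.8, 17.3 and 20.1 CPM (log2 fold change 0.16, SE 0.12, adjusted *P* = 0.36). Both pairs of groups overlapped. With a term for Y-linked counts *Mt2* passed as higher (0.28, adjusted *P* = 0.030). *Mt3* stood at 4.26, 4.73 and 5.21 CPM in *Pax3* Sp2H/Sp2H embryos, from 97, 106 and 125 counts. In wild-type embryos it stood at 1.65, 1.66 and 2.12 CPM, from 34, 29 and 50 counts. The groups were far from overlapping, with a log2 fold change of 1.38 (SE 0.19, adjusted *P* = 6.4e-06), and the call was kept in 14 of 14 other settings.

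A trend with transcript length runs through the *Pax3* line and bears on these values, since the metallothionein transcripts are among the shortest. When the genes tested were cut into 10 length classes of equal size, the shortest class held transcripts of 1231 nucleotides or fewer, and its median log2 fold change was 0.28 (quartiles 0.076 and 0.50, 1561 genes) and 41.9% were called. The longest class had a median of -0.12, and 29.2% were called. The *Carm1* line had medians of 0.0089 and -0.0096 in these classes. With the length and GC offsets, the shortest class of the *Pax3* line had a median of -0.028. In that fit *Mt3* still rose, by 0.81 (adjusted *P* = 0.0042), whereas *Mt1* turned to -0.45 (0.026) and *Mt2* to -0.32 (0.037). The reference transcripts used are 549 nucleotides for *Mt1*, 511 for *Mt2* and 536 for *Mt3*. What gave rise to the trend was not tested.

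**Figure D3:**
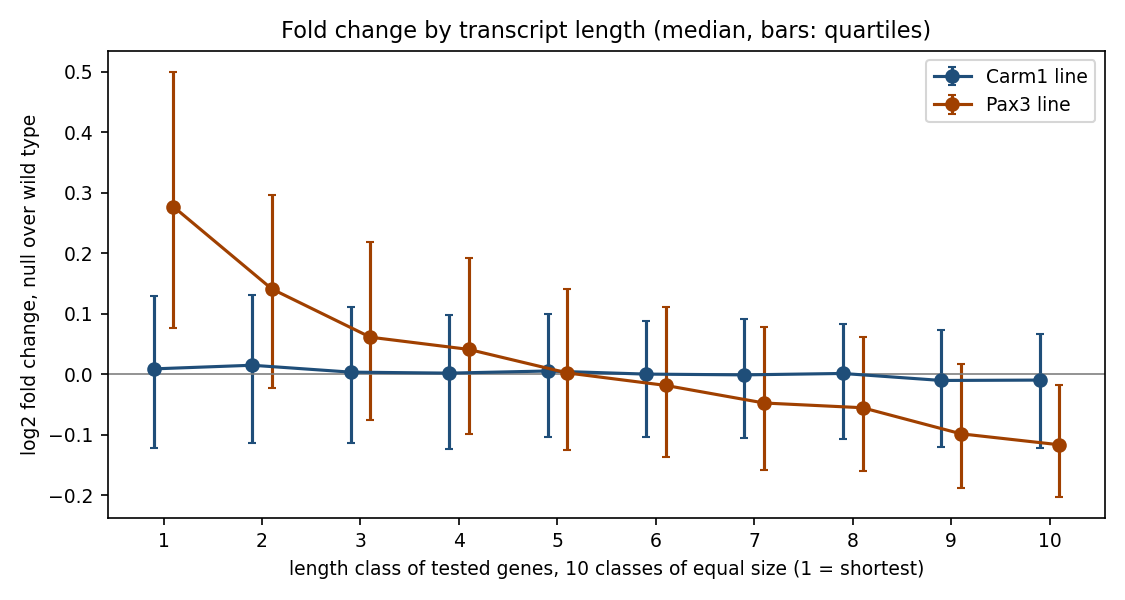
Median log2 fold change, mutant over wild type, of the genes tested in each line by length class of the transcript (1 is the shortest of 10), with quartiles as bars. The medians of the *Pax3* line run from 0.28 in the shortest class to -0.12 in the longest, and those of the *Carm1* line stay near 0.

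*Ftl1* also rose in *Pax3* Sp2H/Sp2H embryos. It stood at 1699, 1482 and 1684 CPM in mutants and at 1285, 1450 and 1449 CPM in wild-type embryos. The groups did not overlap, with a log2 fold change of 0.23 (SE 0.072, adjusted *P* = 0.022). With the offsets its direction turned (-0.15, adjusted *P* = 0.054), and the call was lost without Sp2H/Sp2H replicate 1 (0.13) or replicate 3 (0.14). *Fth1* stood at 514, 426 and 508 CPM in mutants and at 534, 497 and 484 CPM in wild-type embryos, and the groups overlapped (log2 fold change -0.055, SE 0.071, adjusted *P* = 0.61). With the offsets *Fth1* passed as lower (-0.22, adjusted *P* = 0.042). The *Ftl1* to *Fth1* ratio was 3.30, 3.48 and 3.32 in mutants and 2.41, 2.92 and 2.99 in wild-type embryos (exact two-sided permutation *P* = 0.1, the smallest possible). *Mt1* over *Mt2* was 1.19, 1.18 and 1.09 in mutants and 1.40, 1.04 and 1.26 in wild-type embryos (exact two-sided permutation *P* = 0.5).

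*Mtf1*, *Slc30a1*, *Slc39a14* and *Slc39a4* overlapped between the groups of the *Pax3* line. *Mtf1* ranged from 27.3 to 30.5 CPM in mutants and from 29.5 to 31.5 CPM in wild-type embryos (adjusted *P* = 0.64). *Slc30a1* ranged from 25.4 to 27.8 CPM and from 24.4 to 28.4 CPM (0.92). *Slc39a14* ranged from 24.8 to 28.1 CPM and from 25.7 to 27.1 CPM (0.90). *Slc39a4* had 8 to 29 counts per library (0.82), and *Hamp* had 2 counts in Sp2H/Sp2H replicate 2 and 0 in the other libraries. Of the 9 genes tested, 2 passed, beside 24.5% of all genes in this line, and the groups of 2 did not overlap, beside 39.9% of all genes. With the length and GC offsets 4 of the 9 passed, while over all genes 2497 of 15724 did. Of the 10 hepatocyte markers, *Apoa2* and *Rbp4* rose and *Afp* fell in this line, with a summed level of 890 to 982 CPM in mutants and 1048 to 1300 CPM in wild-type embryos. With the offsets *Apoa2* went from 0.70 to 0.29 (adjusted *P* = 0.018) and *Rbp4* from 0.42 to 0.11, which was not called (0.31).

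**Figure D4:**
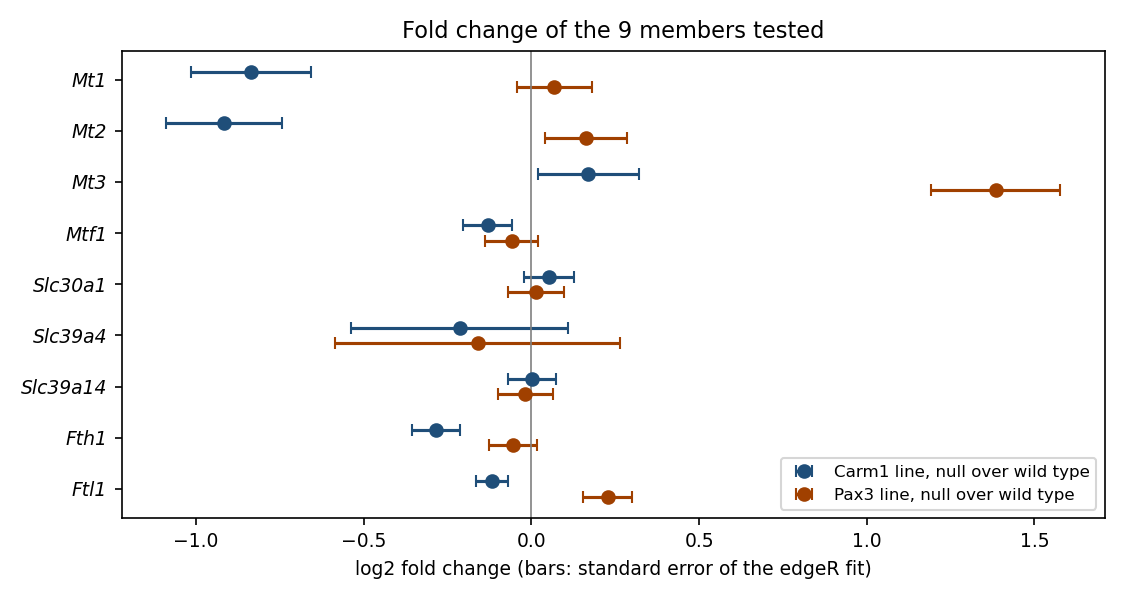
Log2 fold change of each gene tested, mutant over wild type, in the *Carm1* line and the *Pax3* line (points), with the standard error of the edgeR fit as a bar. *Mt1* and *Mt2* lie to the left of 0 in the *Carm1* line at -0.84 and -0.92, and *Mt3* lies at 1.38 in the *Pax3* line.

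The fold changes of the 2 lines were compared in 1 fit of all 12 libraries, in which 19.1% of 16292 genes passed. The log2 fold change in the *Carm1* line was lower than that in the *Pax3* line by a value of -0.89 for *Mt1* (SE 0.25, adjusted *P* = 0.040), -1.20 for *Mt3* (SE 0.24, adjusted *P* = 5.1e-04) and -0.34 for *Ftl1* (SE 0.089, adjusted *P* = 0.0070). For *Mt2* it was -1.07 (SE 0.26), and -0.59 with offsets for length and GC content, both given with no test. With offsets for length and GC content these differences were -0.38 for *Mt1* (adjusted *P* = 0.35), -0.65 for *Mt3* (0.051) and 0.033 for *Ftl1* (0.78), and none of the 9 genes passed in that edgeR fit, with 2 at an unadjusted *P* under 0.05, while 2797 of all 16292 genes passed in it. Without the offsets edgeR and DESeq2 each called 4 genes of the set, *Mt2* among them, and DESeq2 called 2794 of all 15215 genes. The fall of *Mt2* chose it, so nothing is read from these counts. For *Fth1* the difference was -0.22 (SE 0.11, adjusted *P* = 0.18), and for *Mtf1* and the zinc transporters it lay between -0.060 and 0.047.

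The level of *Mt1* and *Mt2* also differed between the lines among wild-type embryos. All 6 libraries of the *Carm1* line (58.8 to 139 CPM for *Mt1*, 59.9 to 149 CPM for *Mt2*) exceeded all 6 of the *Pax3* line (17.9 to 25.2 CPM and 14.8 to 22.9 CPM). Over wild-type embryos the *Carm1* line was 5.29-fold higher for *Mt1*, 6.97-fold higher for *Mt2* and 3.22-fold higher for *Mt3*. Over mutants the same folds were 2.84, 3.32 and 1.38. Of 16292 genes, 0.246% differed between the wild-type groups by as much as *Mt1*, whereas 17.5% had no overlap between the 6 and 6 libraries. The wild-type values of *Mt2* in the *Carm1* line are among those that chose it, so its levels here are a description. The other member without overlap was *Slc39a14*, at 1.14-fold over wild-type embryos. These folds and shares were taken without offsets for length and GC content, over genes of all lengths, and the metallothionein transcripts are among the shortest. Line, strain and any difference in how the embryos or libraries were handled cannot be told apart here, and no test was made.

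Levels were set side by side per kilobase of 1 reference transcript per gene, with the limits given above for ferritin pseudogenes and for transcript length in the *Pax3* line. The ferritin light chain had the highest value in wild-type embryos of both lines. In the *Carm1* line *Ftl1* stood at 1488 ± 56.7 CPM per kb, *Fth1* at 311 ± 37.9, *Mt2* at 237 ± 47.2 and *Mt1* at 205 ± 42.0 (SD, n = 3). *Mt1* and *Mt2* lay within their spread of each other, and the libraries of *Fth1* and *Mt2* overlapped. *Mt3* followed at 10.9 ± 1.05 CPM per kb, then *Slc39a14* at 6.15 ± 0.331, *Slc30a1* at 5.19 ± 0.181, *Mtf1* at 3.78 ± 0.0468 and *Slc39a4* at 0.469 ± 0.124. In the *Pax3* line the order of the first 2 was the same, at 1441 ± 98.3 CPM per kb for *Ftl1* and 338 ± 17.2 for *Fth1*, and *Mt1* and *Mt2* followed at 38.8 ± 6.67 and 34.0 ± 5.12, again within their spread. The mean of *Mt3* came after that of *Mtf1* there, at 3.37 ± 0.505 and 3.99 ± 0.135 CPM per kb, but their libraries overlapped.

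The genes whose counts followed *Mt2* most closely were found from the deviations of log2 CPM from the 4 group means over the 12 libraries, among 12035 genes. *Bsg*, a membrane glycoprotein, had a Pearson r of 0.98, and *Mrpl52*, *Atp5f1*, *Atp5j2* and *Gpx4* had 0.94 each. *Mrpl52*, *Atp5f1* and *Atp5j2* encode proteins of mitochondria, and *Gpx4* encodes a selenium-dependent peroxidase. *Mt1* had an r of 0.85 and ranked 99, *Ftl1* had 0.80 and *Fth1* 0.54, while *Slc30a1*, *Mtf1* and *Slc39a14* had -0.20, -0.26 and -0.37. The points share library, depth and any length or GC effect of a library, and these values are a description only.

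Other genes of zinc, iron, copper and heme, with *Mt4*, were read from lists of 69 genes. In the *Carm1* line 63 were tested, of which 5 rose and 9 fell, and in the *Pax3* line 62 were tested, of which 12 rose and 7 fell. These shares of 22.2% and 30.6% stand beside 13.3% and 24.5% of all genes. Without *Carm1* KO/KO replicate 1 the counts were 2 and 6, without KO/KO replicate 2 they were 1 and 7, and without wild-type replicate 2 they were 1 and 8. Fewer genes passed in these fits as a whole, at 1224 of 16018, 1381 of 16044 and 1349 of 16018, against 2106 of 15811 with all libraries. Among *Pax3* libraries, offsets for length and GC content left 8 that rose and 4 that fell.

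Among iron genes of the *Carm1* line, 3 of 16 tested fell, beside 13.3% of all genes called, with a list median of -0.027. *Tfrc*, the transferrin receptor, stood at 184 ± 13.8 CPM in mutants against 239 ± 20.5 CPM (log2 fold change -0.38, adjusted *P* = 4.3e-04). *Slc25a37*, the mitoferrin of erythroid cells, fell by 0.36 on the log2 scale (adjusted *P* = 4.0e-07), and *Slc25a28*, its widely expressed relative, fell by 0.24 (0.049). Of 9 hepcidin control genes, the liver receptor *Tfr2* fell by 0.68 (adjusted *P* = 0.0010) and the liver protease *Tmprss6* fell by 0.99 (0.0059). The BMP target genes *Id1* and *Smad7* rose by 0.31 (1.3e-04) and 0.23 (0.019). Of 8 heme genes, *Hpx*, which encodes the plasma heme carrier hemopexin, fell by 1.10 (0.030), and *Blvrb*, a biliverdin reductase, fell by 0.44 (1.4e-06).

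Zinc transporters outside the set moved in both directions in the *Carm1* line, beside 13.3% of all genes called. Of 12 importers, *Slc39a5* fell by 1.04 on the log2 scale (adjusted *P* = 1.3e-04), *Slc39a6* rose by 0.14 (0.031) and *Slc39a8* rose by 0.20 (0.039). Of 8 exporters, *Slc30a10*, better known for exporting manganese, fell by 0.37 (0.0026). Of 10 copper genes, the copper pump *Atp7a* rose by 0.18 (0.0086). The calls of *Slc39a5*, *Slc30a10*, *Tfr2*, *Tfrc*, *Slc25a37*, *Blvrb* and *Id1* were kept in 14 of 14 other settings, whereas *Slc39a8* and *Slc25a28* passed in 6 of 14, *Smad7* and *Slc39a6* in 8, *Hpx* and *Atp7a* in 11 and *Tmprss6* in 13. *Hpx* had a log2 fold change of -0.69 without wild-type replicate 3, and it was not called without *Carm1* KO/KO replicate 1 (adjusted *P* = 0.14), 2 or 3. The summed hepatocyte markers given above differ between these groups in the same direction as *Hpx*, *Tfr2*, *Tmprss6* and *Slc39a5*. The erythroid markers *Rhag*, *Epb42*, *Klf1*, *Slc4a1* and *Alas2* fell by 0.40 to 0.62, beside the falls of *Tfrc*, *Slc25a37* and *Blvrb* by 0.38, 0.36 and 0.44. The part of either cell type in these values was not tested.

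The copper list of the *Pax3* line held 5 genes of 10 that were higher and 1 that was lower (median log2 fold change 0.13), beside 24.5% of all genes called. *Cox17*, which passes copper to cytochrome oxidase, rose by 1.09 (adjusted *P* = 6.1e-09), the chaperone *Atox1* rose by 0.93 (7.2e-08) and *Ccs*, the chaperone of superoxide dismutase, rose by 0.67 (2.8e-06). *Sod1*, the enzyme that *Ccs* serves, rose by 0.38 (1.5e-05), and *Commd1* rose by 0.22 (0.037) with groups that overlapped. *Atp7a* fell by 0.25 (0.0020) and did not pass with the offsets (0.051). With offsets for length and GC content *Atox1* had 0.39 (7.9e-04), *Ccs* had 0.35 (0.0020) and *Sod1* had 0.0020 (0.99), while *Cox17*, whose reference transcript here has 3690 nucleotides, had 1.16 (2.6e-09). The longest tagged transcript of a gene was used, so this fit treats *Cox17* as a long gene. A shorter transcript was not tried, so the value does not show that the rise of *Cox17* is apart from the length trend.

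Iron genes of the *Pax3* line went both ways, with 3 of 16 higher and 4 lower (median -0.12), beside 24.5% of all genes called. *Slc25a28* rose by 0.47 (adjusted *P* = 2.2e-04) and *Pcbp1*, an iron chaperone, rose by 0.23 (0.0092), and neither passed with the offsets. *Trf*, which encodes transferrin, fell by 0.33 (1.0e-04) and did so with the offsets as well (5.7e-05), but it did not pass in 1 fit of all 12 libraries (0.093). *Pcbp2* fell by 0.24 (0.0036). *Ireb2* and *Ncoa4*, an iron regulatory protein and the receptor that sends ferritin to the lysosome, fell by 0.17 (0.019) and 0.20 (0.030), and neither passed with the offsets. The heme oxygenase gene *Hmox1* fell by 0.31 (0.0083), and *Smad7* rose by 0.41 (3.4e-04). Among zinc importers *Slc39a7* rose by 0.31 (1.3e-04), *Slc39a5* by 0.76 (0.0095) and *Slc39a1* by 0.22 (0.013), and *Slc39a10* fell by 0.25 (0.0012). With the offsets *Slc39a5* did not pass (0.067), *Slc39a7* had 0.18 (0.0041), *Slc39a1* had 0.18 (0.024) and *Slc39a10* had -0.13 (0.036). None of the 7 zinc exporters tested passed in edgeR's test of this line, beside the same 24.5%, and 2 had an unadjusted *P* under 0.05. DESeq2 also called 0, whereas 1 exporter passed with the replicate block, 1 in 1 fit of all 12 libraries and 1 without wild-type replicate 2. Of the genes named in the *Pax3* line, *Cox17*, *Atox1*, *Ccs*, *Pcbp2*, *Smad7*, *Slc39a7* and *Slc39a10* passed in 14 of 14 other settings. For *Cox17* the fit with offsets rests on the long reference transcript given above. *Sod1*, *Atp7a*, *Slc25a28*, *Hmox1* and *Trf* passed in 13, *Pcbp1* and *Slc39a5* in 12, *Slc39a1* in 11, *Ireb2* in 10 and *Commd1* and *Ncoa4* in 9. The highest adjusted *P* was 0.17 for *Commd1*, without wild-type replicate 1, and 0.075 for *Slc39a1*, without Sp2H/Sp2H replicate 3.

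**Figure D5:**
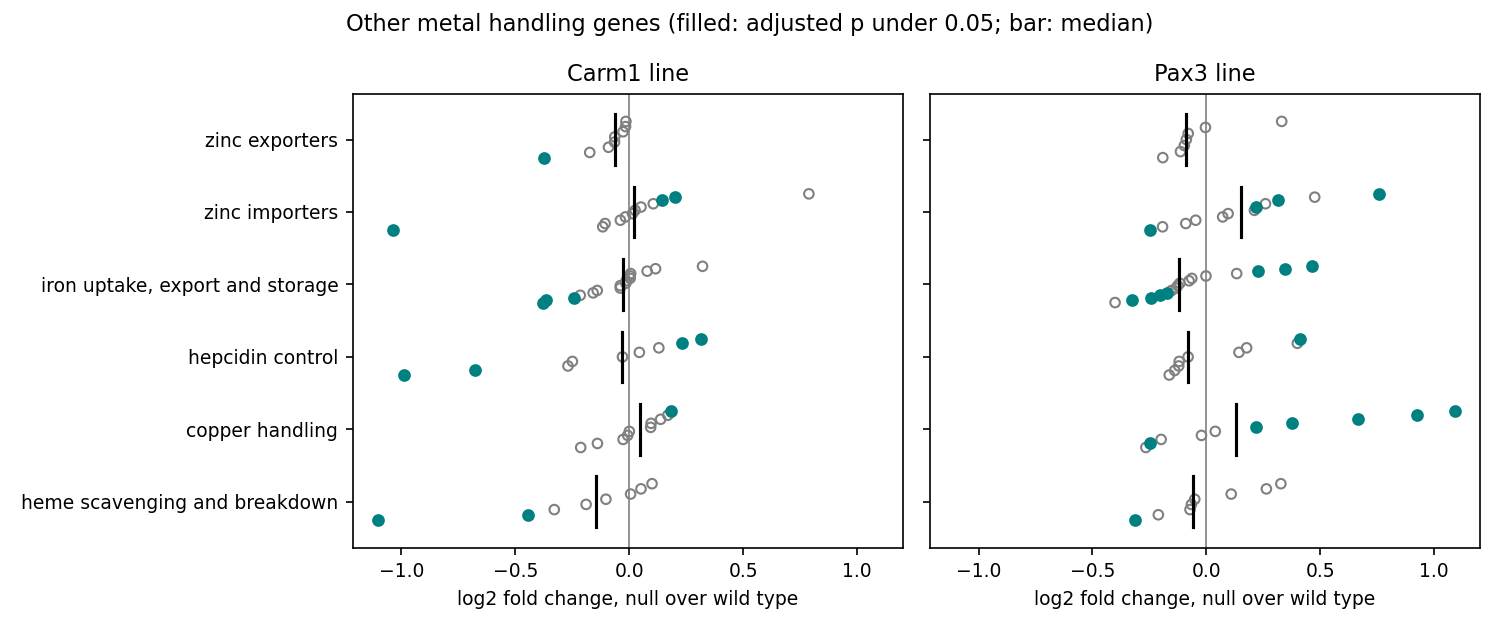
Log2 fold change, mutant over wild type, of each tested gene in 6 lists of other metal handling genes, in the *Carm1* line (left) and the *Pax3* line (right), with filled points for an adjusted *P* under 0.05 and a bar at the list median. The copper list of the *Pax3* line has 5 filled points to the right of 0, and the hepcidin list of the *Carm1* line has 2 on each side.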

How the data were processed

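Whole-embryo RNA was profiled in 12 libraries, 3 per group. The authors aligned reads to mm10 with STAR and counted them per gene with featureCounts (versions, strand setting and treatment of reads with several matches are not given in the sources used here). The deposited files hold raw counts without normalization. Groups and replicate numbers came from the labels. The genes of the set and the lists were chosen with earlier results of these data known. The rule for naming other genes was at most 6 called genes per list, and the 5 genes most like *Mt2* with a mean of at least 5 CPM in each line.

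Counts were tested in each line with edgeR 4.0.16 (R 4.3.3; TMM scaling, filterByExpr, robust quasi-likelihood test, Benjamini-Hochberg threshold 0.05), and the difference between lines in 1 fit of all 12 libraries. The fits were tested on simulated data with known changes. P-values measure the spread between 3 embryos. Correlations and line differences used log2(CPM + 0.5). Alternatives were DESeq2 1.42.0, RLE scaling, no filter, at least 10 counts in every library, the replicate number as a block, a term for Y-linked counts, length and GC offsets (splines with 5 degrees of freedom, 1 reference transcript per gene), 1 fit of all libraries, and leaving out each library. GENCODE symbols matched 21777 of 23420 genes as written and 1260 through a synonym. Promoter windows came from a table of RefSeq windows (GRCm38.p6), in which 8 of the 10 genes were matched.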

Additional observations from a re-analysis of the deposited data

Results flagged for a closer look

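The effect of the mutation was compared between the lines as the log2 fold change in the *Carm1* line minus that in the *Pax3* line, in 1 edgeR fit of all 12 libraries. Of the 9 genes tested 4 passed, *Mt2* included, beside 19.1% of all genes, and 0 passed with the offsets for length and GC content. The count holds *Mt2*, whose fall in the *Carm1* line chose it, so nothing is read from it. The difference was -0.89 for *Mt1* (adjusted *P* = 0.040), and it passed in 9 of 19 other settings (adjusted *P* from 1.6e-06 to 0.35). It was -1.07 for *Mt2*, or -0.59 with the offsets, a description only, since the fall of *Mt2* in the *Carm1* line chose it. It was -1.20 for *Mt3* (adjusted *P* = 5.1e-04), which passed in 18 of 19 other settings, the exception being the offsets for length and GC content (0.051). It was -0.34 for *Ftl1* (adjusted *P* = 0.0070), which also passed in 18 of 19, and the offsets turned it to 0.033. The line is confounded with strain and litter.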

How the results depend on the processing

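The number of genes of the set past the threshold was 2 in the *Carm1* line and 2 in the *Pax3* line. It was 4 for the difference between lines. Beside these stand 13.3%, 24.5% and 19.1% of all genes. *Mt2*, chosen by its fall in the *Carm1* line, is among the genes counted here and below, so nothing is read from these counts. Leaving out 1 library at a time gave 0 to 3, 1 to 2 and 2 to 5. The 0 arose in edgeR without *Carm1* KO/KO replicate 1, where 4 genes had an unadjusted *P* under 0.05, and each count of 1 without KO/KO replicate 2 or 3 or without Sp2H/Sp2H replicate 1 or 3, and the 2 for the difference arose without *Carm1* KO/KO replicate 2 or *Pax3* wild-type replicate 1. With length and GC offsets the counts were 3, 4 and 0, beside 3079 of 15811, 2497 of 15724 and 2797 of 16292 genes. Those offsets also turned the direction of 5 fold changes in the *Pax3* line, to -0.45 for *Mt1*, -0.32 for *Mt2*, -0.15 for *Ftl1*, 0.045 for *Mtf1* and 0.062 for *Slc39a14*, and of 4 differences, to 0.033 for *Ftl1*, -0.043 for *Slc30a1*, 0.046 for *Slc39a4* and -0.040 for *Slc39a14*. The cause was not tested.

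Small fold changes changed sign when 1 library was left out. In the *Carm1* line *Slc39a14* ranged from -0.046 to 0.029, and with at least 10 counts in every library it was -0.0011. In the *Pax3* line the ranges were -0.028 to 0.22 for *Mt1*, -0.037 to 0.077 for *Slc30a1*, -0.72 to 0.42 for *Slc39a4*, -0.077 to 0.015 for *Slc39a14* and -0.10 to 0.027 for *Fth1*. For the difference they were -0.10 to 3.7e-04 for *Mtf1*, -0.0071 to 0.10 for *Slc30a1*, -0.62 to 0.51 for *Slc39a4* and -0.019 to 0.086 for *Slc39a14*. The range of *Mt2* in the *Carm1* line was -0.999 to -0.74, and that of *Mt1* was -0.94 to -0.65.

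With the replicate number as a block, 3, 2 and 4 genes of the set passed, beside 1787 of 15811, 4177 of 15724 and 3094 of 16292 genes. The 3 and the 4 include *Mt2*, whose fall chose it, so nothing is read from these counts. *Mt1* passed in the *Carm1* line with the block (adjusted *P* = 9.3e-07). The labels do not say that the numbers pair the embryos. Same-numbered mutant and wild-type libraries deviated with correlations of -0.059, -0.0020 and -0.043 in the *Carm1* line and 0.18, -0.076 and 0.27 in the *Pax3* line, and not every library correlated best with its own number. Deviations from means of 3 libraries cannot decide whether the numbers pair embryos. Over all genes, 2106 were called in the *Carm1* line, 1224 to 2290 when 1 library was left out, and 3079 with the offsets, which moved the split from 868 higher and 1238 lower to 1669 and 1410. In the *Pax3* line 3851 were called, 2454 to 4103 when 1 library was left out, and 2497 with the offsets. Counts were low for *Hamp* and *Slc39a4*, and *Mt3* had 29 to 50 counts in wild-type libraries of the *Pax3* line.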

Other observations

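Glucocorticoids and oxidants are known to induce metallothioneins, and genes that respond to them were read beside the 13.3% of all genes called in the *Carm1* line and 24.5% in the *Pax3* line. Of 8 glucocorticoid response genes, *Zbtb16* rose in the *Carm1* line by 0.38 on the log2 scale (adjusted *P* = 0.024), a call kept in 8 of 14 other settings, and *Ddit4* rose in the *Pax3* line by 1.09 (0.0013), kept in 14 of 14. Of 7 oxidative stress genes, *Nqo1* fell by 0.65 (0.0032) and *Gclm* by 0.34 (2.8e-04) in the *Carm1* line, and their calls were kept in 14 of 14 other settings. In the *Pax3* line 0 of the 7 passed in edgeR's test or in DESeq2, and 0 had an unadjusted *P* under 0.05.

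Wild-type replicate 3 of the *Pax3* line held 18.1 CPM on 4 visceral yolk sac markers, against 3.0 to 5.52 CPM in the other 11 libraries. Of this sum 10.98 CPM came from *Apoa4* alone, which failed the filter on low counts and is also expressed in gut and liver. The other 3 markers, *Amn*, *Cubn* and *Rhox5*, stood at 0.891, 4.199 and 1.99 CPM there. *Slc39a4* stood at 1.23 CPM in that library and at 1.16 CPM in Sp2H/Sp2H replicate 2, whose yolk sac markers summed to 3.97 CPM. Placenta markers summed to at most 0.669 CPM in any library.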
